A study of Caenorhabditis elegans with 6 samples.

Results

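The nuclear hormone receptor genes of Caenorhabditis elegans carry the symbol nhr followed by a number. On the Affymetrix array of this nematode, 249 nhr genes could be measured through a probe set annotated to them alone, among 17138 genes measured in this way. The genes nhr-23, nhr-25, nhr-41, nhr-67, nhr-73, nhr-74 and nhr-85 were set aside by the rule that chose the family. Where a gene had several probe sets, the one with the highest mean signal over the 6 arrays stood for it. Differences between the groups took no part in the choice of probe set, while the family was chosen with earlier results of these data known. RefSeq lists 238 of the 249 genes as protein-coding and 11 as pseudogenes.

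Nuclear hormone receptors are transcription factors with a zinc finger domain that binds DNA and, in most members, a domain that can bind small fat-soluble molecules such as steroids and fatty acids. Nematodes carry far more of these genes than insects or vertebrates do, and most of the additional genes descend from an ancestor related to vertebrate HNF4. In C. elegans, single members are known for control of fat breakdown and desaturation, for responses to toxins, pathogens and metals, and for larval development, while many others have no assigned role.

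RNA of whole L3 larvae was measured in 3 hs::ΔNTbar-1 samples and 3 hs::control samples, with 1 array for each, and the study describes the samples as biological replicates. The hs::ΔNTbar-1 animals carry the integrated array huIs7, in which a heat shock promoter drives BAR-1, a beta-catenin, in a truncated and Myc-tagged version, together with mec-7::GFP and dpy-20(+). BAR-1 acts with POP-1/TCF in Wnt signaling, and the truncation removes the end of the protein through which it is marked for breakdown. The hs::control animals carry deIs14, made by injecting dpy-20(e1282) animals with the heat shock vector without an insert and the same 2 marker genes. Both received a single heat shock of 30 min and a short recovery, at a temperature that the labels give as 30° and the study's methods give as higher. Each group was 1 strain and no animals without heat shock were measured, so other fixed differences between the strains cannot be told apart from a response to ΔNTBAR-1. In RNA of whole worms, fewer cells that express a gene and less RNA per cell cannot be told apart.

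The transgene was visible in the signal of bar-1, which was 7755, 20991 and 16009 on the hs::ΔNTbar-1 arrays and 586, 519.5 and 575 on the hs::control arrays. The log2 fold change reached 4.58 with a standard error of 0.36 (adjusted p = 0.00775 by limma), and every array lay on the side given by its label. The adjusted p was 0.0554 without hs::ΔNTbar-1 replicate 3, and became 0.052 when hs::control replicate 1 was left out and 0.0556 when it was replicate 2. Median signals were 134 to 145 on the hs::ΔNTbar-1 arrays and 131 to 143 on the hs::control arrays. Between arrays, the correlation of log2 signals across probe sets was 0.979 to 0.981 within groups and 0.973 to 0.976 between groups.

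Most nhr genes gave a dim signal in these larvae. The mean signal over the 6 arrays had a median of 82.7 over the nhr genes, beside 136 over all genes. It was under 100 for 132 nhr genes (53.0%, beside 44.8% of all genes), and 113 nhr genes stayed under 100 on each of the 6 arrays. At the other end, 17 nhr genes reached 500 and 8 reached 1000. Signal depends on the probes as well as on the transcript, so the order of these genes by signal is not an order of transcript amounts.

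The highest signal of the family came from nhr-49, a relative of HNF4 that controls fatty acid beta-oxidation and desaturation. It was 3225, 3352 and 2853 on the hs::ΔNTbar-1 arrays and 3359, 3573 and 3463 on the hs::control arrays. The groups met without overlapping, and the log2 fold change of -0.14 had a 95% interval of -0.42 to 0.13. nhr-31, which is needed in the excretory cell and controls subunits of the vacuolar ATPase, averaged 1527 ± 117 on the hs::ΔNTbar-1 arrays, against 1846 ± 341 on the hs::control arrays (SD, n = 3 each), with overlapping groups. nhr-68, which controls a side route for the breakdown of propionate, averaged 1066 ± 126 on the hs::ΔNTbar-1 arrays, against 990.3 ± 60.7 on the hs::control arrays, again with overlap. nhr-66, a partner of NHR-49 in sphingolipid metabolism, averaged 893 ± 122 on the hs::ΔNTbar-1 arrays, against 949 ± 70.8 on the hs::control arrays. nhr-3 differed by less than the spread between replicates, with 1402 ± 95.2 on the hs::ΔNTbar-1 arrays, against 1412 ± 174 on the hs::control arrays. The spread was widest for nhr-97 among the 10 genes of highest signal, with 713, 1169 and 1487 on the hs::ΔNTbar-1 arrays and 1011, 1155 and 1612 on the hs::control arrays.

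The comparison of the strains asks which genes respond to activated Wnt signaling, and here it found no nhr gene past its thresholds. Signals were compared as log2(signal + 16), which understates fold changes of dim probe sets, and every log2 fold change is hs::ΔNTbar-1 minus hs::control. With limma and an adjusted p under 0.05, 0 nhr genes were higher and 0 were lower, where 0.443% of all genes were higher and 0.286% were lower. The lowest adjusted p of the family was 0.157, for nhr-122. At an unadjusted p under 0.05 by limma, 25 nhr genes passed (10.04%, beside 13.9% of all genes), with 10 higher (7.25% of all genes) and 15 lower (6.69% of all genes). The study's criteria, which ask for means that differ 2-fold or more, an analysis of variance p no higher than 0.05 and a shared direction in no fewer than 2 hs::ΔNTbar-1 arrays, were met by 0 nhr genes in either direction, where 0.782% of all genes met them as higher and 0.572% as lower, or 1.35% in all. This count took the 2-fold change on log2(signal + 16). With the ratio of mean signals, 1 dim nhr gene met them as higher, nhr-268, with 12.2, 18.6 and 18.7 on the hs::ΔNTbar-1 arrays and 3.3, 7.9 and 6.8 on the hs::control arrays. Analysis of variance with Benjamini-Hochberg adjustment called 1 nhr gene, nhr-59, which is described below.

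**Figure D1:**
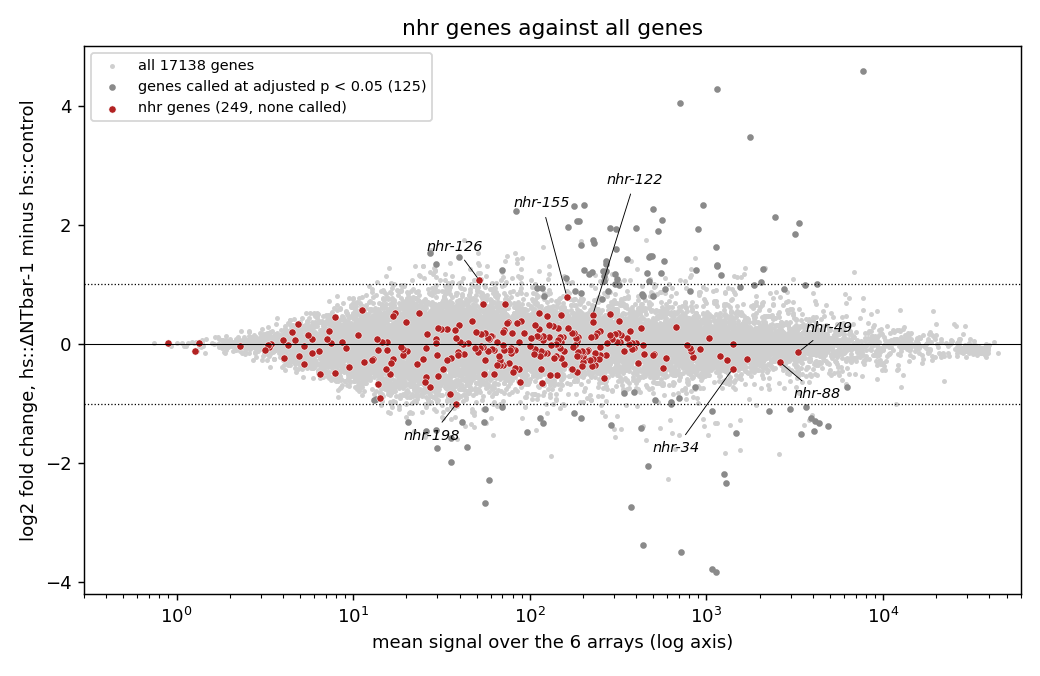
Log2 fold change (hs::ΔNTbar-1 minus hs::control, vertical axis) against mean signal over the 6 arrays (horizontal log axis), with 1 point per gene. The 249 nhr genes lie between -1.01 and 1.07 and none is among the 125 genes called by limma, which are drawn in dark grey, with dotted lines at a 2-fold change.

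The arrays set narrow limits on most of the brighter nhr genes and, at the median, wider limits on the dim ones. Among the 117 nhr genes with a mean signal of at least 100, the 95% interval of the log2 fold change lay within 1 unit of 0, a 2-fold change, for all but 6. The exceptions were nhr-42, nhr-119, nhr-121, nhr-155, nhr-158 and nhr-186. Among the 132 genes under 100, 47 had an interval that reached a 2-fold change. The median distance from the estimate to the end of the interval was 0.35 in the brighter genes and 0.61 in the dim ones.

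The family was slightly shifted toward lower signal in hs::ΔNTbar-1 animals. The median log2 fold change was -0.06 over the nhr genes and 0.00 over all genes, and 145 of 249 nhr genes were below 0 (58.2%, beside 49.9% of all genes). Added over the nhr genes, the signal was 43920, 45711 and 45663 on the hs::ΔNTbar-1 arrays and 46927, 48273 and 48855 on the hs::control arrays, so that every hs::ΔNTbar-1 array lay below every hs::control array in this sum, to which the bright genes contribute most. The median signal of the nhr genes did not follow it, at 90.2, 85.5 and 92.8 on the hs::ΔNTbar-1 arrays and 86.7, 82.9 and 92 on the hs::control arrays. The median deviation of the nhr genes from the mean of the hs::control arrays also overlapped between groups, at -0.071, -0.039 and -0.031 (log2) on the hs::ΔNTbar-1 arrays and -0.035, 0.0095 and 0.041 on the hs::control arrays. Over all genes it drifted between arrays too, at -0.030, 0.0035 and 0.032 on the hs::ΔNTbar-1 arrays and -0.028, -0.0011 and 0.027 on the hs::control arrays. The nhr value lay below that of all genes on every hs::ΔNTbar-1 array and on hs::control replicate 1. It lay above on hs::control replicates 2 and 3. The median log2 fold change of the nhr genes rested in part on single arrays, at -0.03 without hs::ΔNTbar-1 replicate 1, and at -0.09 or -0.01 when hs::control replicate 1 or 3 was the one left out.

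The groups of 3 arrays did not overlap for 17 nhr genes on the higher side, beside 11% of all genes, and for 27 on the lower side, beside 10.5% of all genes. Together these are 17.7% of the nhr genes and 21.5% of all genes. With a mean signal of at least 100 the numbers were 14 higher (15.5% of all such genes) and 20 lower (14.4%), or 29.1% of the nhr genes and 30% of all genes. The combined shares in the family stood below those of all genes, while on the lower side the share of all nhr genes, 10.8%, stood slightly above.

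On the higher side, nhr-155 had the largest log2 fold change among nhr genes with separated groups and a mean signal of at least 100. It gave 213, 206 and 198.1 on the hs::ΔNTbar-1 arrays and 178, 103 and 74.5 on the hs::control arrays. The hs::ΔNTbar-1 arrays lay close together and the hs::control arrays were spread, with a log2 fold change of 0.79 (standard error 0.27, adjusted p = 0.292). nhr-122 averaged 268 ± 23.3 on the hs::ΔNTbar-1 arrays, against 187 ± 9.24 on the hs::control arrays (SD, n = 3 each). The lowest hs::ΔNTbar-1 array, at 248.5, lay well above the highest hs::control array, at 193, and the log2 fold change was 0.48 with an interval of 0.21 to 0.76. nhr-115 gave 179, 129 and 136 on the hs::ΔNTbar-1 arrays, against 100, 101.8 and 101.3 on the hs::control arrays, a log2 fold change of 0.47, with 1 hs::ΔNTbar-1 array well above the other two. nhr-132, nhr-147 and nhr-43 had log2 fold changes of 0.52, 0.49 and 0.50, with adjusted p-values of 0.216, 0.227 and 0.291. The remaining 4 of the 10 were nhr-48 (0.38), nhr-141 (0.32), nhr-183 (0.31) and nhr-45 (0.28). Without hs::control replicate 3, the value of nhr-183 was 0.18.

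On the lower side, nhr-34 had tight groups at a high signal, with 1145, 1207 and 1259 on the hs::ΔNTbar-1 arrays and 1622, 1585 and 1630 on the hs::control arrays. Its log2 fold change was -0.42 (interval -0.66 to -0.17, adjusted p = 0.164). nhr-99 showed the same size of difference at a low signal, with 92.1, 98.0 and 98.5 on the hs::ΔNTbar-1 arrays and 136, 137 and 129.8 on the hs::control arrays (log2 fold change -0.42, adjusted p = 0.159). nhr-10, which acts with NHR-68 in the breakdown of propionate, gave 439, 483 and 537 on the hs::ΔNTbar-1 arrays, against 616, 638 and 684 on the hs::control arrays. All 3 hs::ΔNTbar-1 arrays were below the hs::control arrays, with a log2 fold change of -0.40 and an adjusted p of 0.237. nhr-88 gave 2275, 2291 and 2404 on the hs::ΔNTbar-1 arrays, against 3024, 2662 and 2942 on the hs::control arrays, a log2 fold change of -0.30. The larger estimates came from dimmer genes with wider intervals. These were nhr-121 at -0.66 (interval -1.30 to -0.01), nhr-119 at -0.52 (-1.03 to -0.02), nhr-186 at -0.51 (-1.003 to -0.02) and the pseudogene nhr-144 at -0.48 (-0.83 to -0.13). nhr-213 and nhr-15 closed the list at -0.38 and -0.30. Single arrays carried several of these values, since nhr-121 was at -0.35 without hs::ΔNTbar-1 replicate 3 and nhr-15 at -0.12 without hs::ΔNTbar-1 replicate 1, while nhr-119 was at -0.34 without hs::control replicate 2 and nhr-186 at -0.31 without hs::control replicate 3.

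Calls for 3 of these genes depended on which probe sets were tested. When the dimmest 40% of probe sets were left out, limma gave adjusted p-values of 0.044 for nhr-122, 0.049 for nhr-34 and 0.046 for nhr-99, among 131 nhr genes tested, and 5% of all genes passed. With a trended and robust variance, nhr-34 alone passed, with an adjusted p of 0.024, beside 3.93% of all genes.

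**Figure D2:**
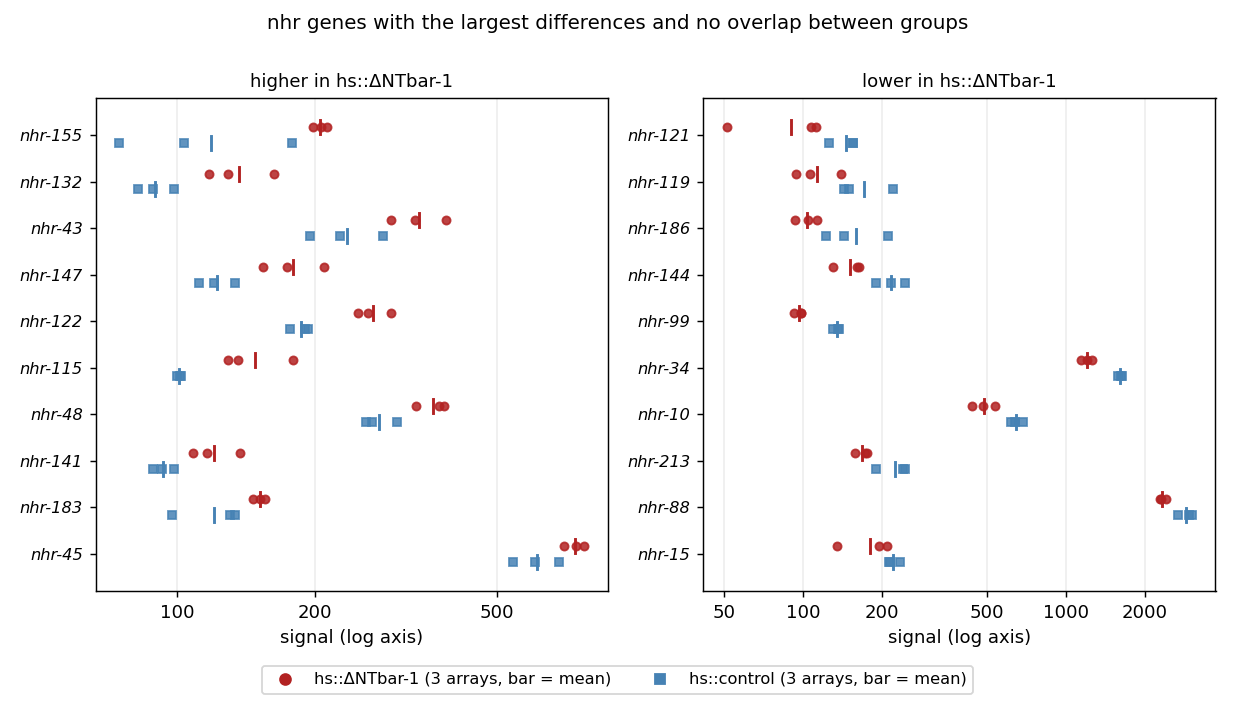
Signal on each array (log axis) of the nhr genes with the largest log2 fold change among those with groups that did not overlap and a mean signal of at least 100, 10 per direction. Circles are hs::ΔNTbar-1 arrays, squares are hs::control arrays and bars are group means. nhr-34 and nhr-99 form tight groups set well apart, while for nhr-155 the hs::control arrays run from 74.5 to 178.

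The extremes of the family in log2 fold change were dim genes, and these were named after their values were seen. nhr-126 had the highest, 1.07 (interval -0.14 to 2.28), from 81.4, 54.4 and 75.6 on the hs::ΔNTbar-1 arrays and 13.2, 9.1 and 77.3 on the hs::control arrays. A single hs::control array overlapped the hs::ΔNTbar-1 group. nhr-198 had the lowest, -1.01 (interval -1.98 to -0.03), from 8.0, 45.1 and 11.7 on the hs::ΔNTbar-1 arrays and 33.1, 74.1 and 58.4 on the hs::control arrays, again with overlap. nhr-59, named for its call by analysis of variance, had even arrays, with 104.5, 102 and 102 on the hs::ΔNTbar-1 arrays, against 76.1, 76.1 and 73.6 on the hs::control arrays. The log2 fold change was 0.38, with an adjusted p of 0.181 by limma and of 0.035 by analysis of variance. The probe set carries a suffix that marks possible binding to more than 1 gene, and the other probe set of nhr-59 gave 69.3 ± 10.9 on the hs::ΔNTbar-1 arrays, against 58.3 ± 22.6 on the hs::control arrays (SD, n = 3 each), with overlap.

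Among the 17 nhr genes with a mean signal of at least 500, 15 had a log2 fold change below 0. The median at this signal was -0.18 over the nhr genes and -0.01 over all genes. The share of all genes below 0 at this signal is not given here. The groups did not overlap for 8 on the lower side, beside 19.2% of all genes at this signal, and for 1 on the higher side, beside 17%. The 8 were nhr-49, nhr-88, nhr-34, nhr-46, nhr-1, nhr-8, nhr-10 and nhr-70. nhr-45 was the gene on the higher side, with 776.8, 701 and 743 on the hs::ΔNTbar-1 arrays and 683, 606 and 542 on the hs::control arrays.

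Other probe sets of the same genes did not show the shift. For 12 of the 17 genes, the next brightest probe set also had a mean signal of at least 100. In these 12 genes the brightest probe set had a median log2 fold change of -0.17 and the next one of 0.04, and the groups were separated on the lower side for 6 brightest and for 1 next brightest. On the higher side, the groups were separated for the brightest probe set of nhr-45 and for the next ones of nhr-66 (0.23) and nhr-3 (0.34). The next probe set of nhr-34 gave 633, 589.8 and 590.2 on the hs::ΔNTbar-1 arrays and 587, 749 and 610.2 on the hs::control arrays. Its groups overlapped, with a log2 fold change of -0.09 beside -0.42. The next probe set of nhr-10 gave 516, 470.5 and 485 on the hs::ΔNTbar-1 arrays and 468, 499.8 and 441 on the hs::control arrays, a log2 fold change of 0.06 beside -0.40. For nhr-49 the 2 values were 0.04 and -0.14, for nhr-46 0.05 and -0.27, for nhr-1 0.29 and -0.22, and for nhr-45 -0.01 and 0.28, each with the next probe set first. Of 30 nhr genes with several probe sets, 16 had probe sets that differed in sign, and the median gap between them was 0.30. Which probe set is closer to the transcript level was not tested.

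**Figure D3:**
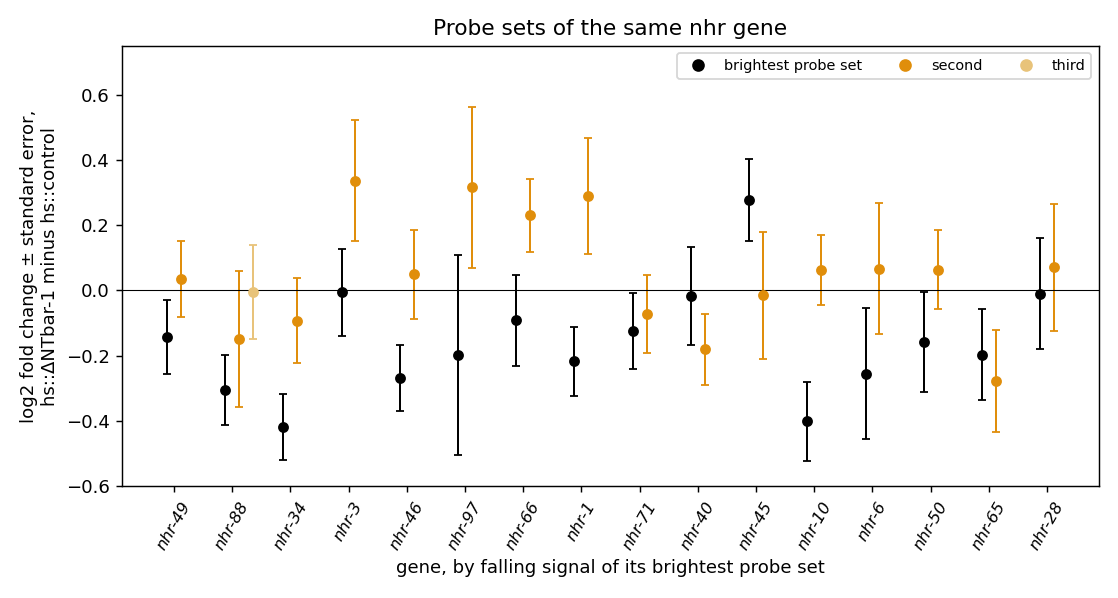
Log2 fold change (hs::ΔNTbar-1 minus hs::control) with its standard error for each probe set of the 16 nhr genes that have at least 2 probe sets with a mean signal of 100 or more, ordered by signal of the brightest. In 11 of the 16 genes the probe sets differ in sign, and in 13 the brightest probe set has the lower value.

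The nhr genes listed by role, or as relatives of receptors outside nematodes, gave 0 calls by limma. Of these, nhr-48 and nhr-10 passed at an unadjusted p under 0.05. In the group known from lipid and diet metabolism, 10 of 11 were measured, with a median log2 fold change of -0.04 and a range of -0.42 to 0.19. nhr-80, a partner of NHR-49 that controls fatty acid desaturases, gave 137, 201 and 108.7 on the hs::ΔNTbar-1 arrays and 199.5, 175 and 226 on the hs::control arrays. Its groups overlapped, and the interval of -0.96 to 0.12 was wide. nhr-13, another partner of NHR-49, was almost level, with 408, 411 and 392.1 on the hs::ΔNTbar-1 arrays, against 387, 416.5 and 390.2 on the hs::control arrays (interval -0.22 to 0.26). The HNF4 relatives nhr-64 and nhr-69 had log2 fold changes of 0.16 and 0.19, and nhr-114, which adjusts metabolism to the bacterial diet, had 0.10 (-0.35 to 0.56). nhr-76, which takes part in fat loss driven by serotonin, was too dim to place, at 28.9 ± 13.8 on the hs::ΔNTbar-1 arrays, against 43.1 ± 32.8 on the hs::control arrays.

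In the group known from xenobiotics, pathogens, metals and hypoxia, 7 of 8 were measured, with a median of -0.11. nhr-42 had the lowest value of the role groups, -0.57 (interval -1.16 to 0.03), from 205, 281 and 147 on the hs::ΔNTbar-1 arrays and 299, 267 and 373 on the hs::control arrays. The groups overlapped through 1 hs::ΔNTbar-1 array. nhr-14, which takes part in the control of iron uptake, was separated on the higher side, with 439, 495 and 457 on the hs::ΔNTbar-1 arrays and 375, 427 and 353 on the hs::control arrays (log2 fold change 0.26, adjusted p = 0.423). nhr-8, a relative of DAF-12 known for resistance to toxins and for cholesterol balance, was separated on the lower side, with 601, 578 and 442 on the hs::ΔNTbar-1 arrays, against 611, 667 and 633 on the hs::control arrays (-0.24, adjusted p = 0.538). nhr-48 belongs to the same branch as nhr-8 but is listed only among the relatives of receptors outside nematodes. It lay on the other side, with 374, 383 and 333 on the hs::ΔNTbar-1 arrays, against 266, 259 and 303 on the hs::control arrays (0.38, adjusted p = 0.252). nhr-86, a receptor of pathogen defence, had 0.22, nhr-57, a target of the hypoxia factor HIF-1, had -0.11, and nhr-176, which controls a cytochrome P450 gene induced by a drug, had -0.25 at a mean signal under 20 in both groups.

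In the group known from development, all 6 were measured, with a median of -0.10 and a range of -0.26 to 0.02. nhr-6, the only NR4A receptor of the worm, which acts in the spermatheca, gave 205, 202.5 and 260.3 on the hs::ΔNTbar-1 arrays and 337, 207 and 272 on the hs::control arrays. nhr-91, a relative of germ cell nuclear factor, had -0.17 (interval -0.59 to 0.24). nhr-40, which acts in embryonic and larval muscle development, and nhr-60, which acts in the seam cells, were at -0.02 and 0.00, with intervals of -0.38 to 0.35 and -0.33 to 0.32. nhr-2, an embryonic receptor, was dim at 45.1 ± 12.6 on the hs::ΔNTbar-1 arrays, against 44.4 ± 13.1 on the hs::control arrays. nhr-111 was also dim and had the widest interval of the 7 relatives of receptors outside nematodes, -0.75 to 1.21. These 7 had a median log2 fold change of 0.16 and a range of -0.26 to 0.38.

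**Figure D4:**
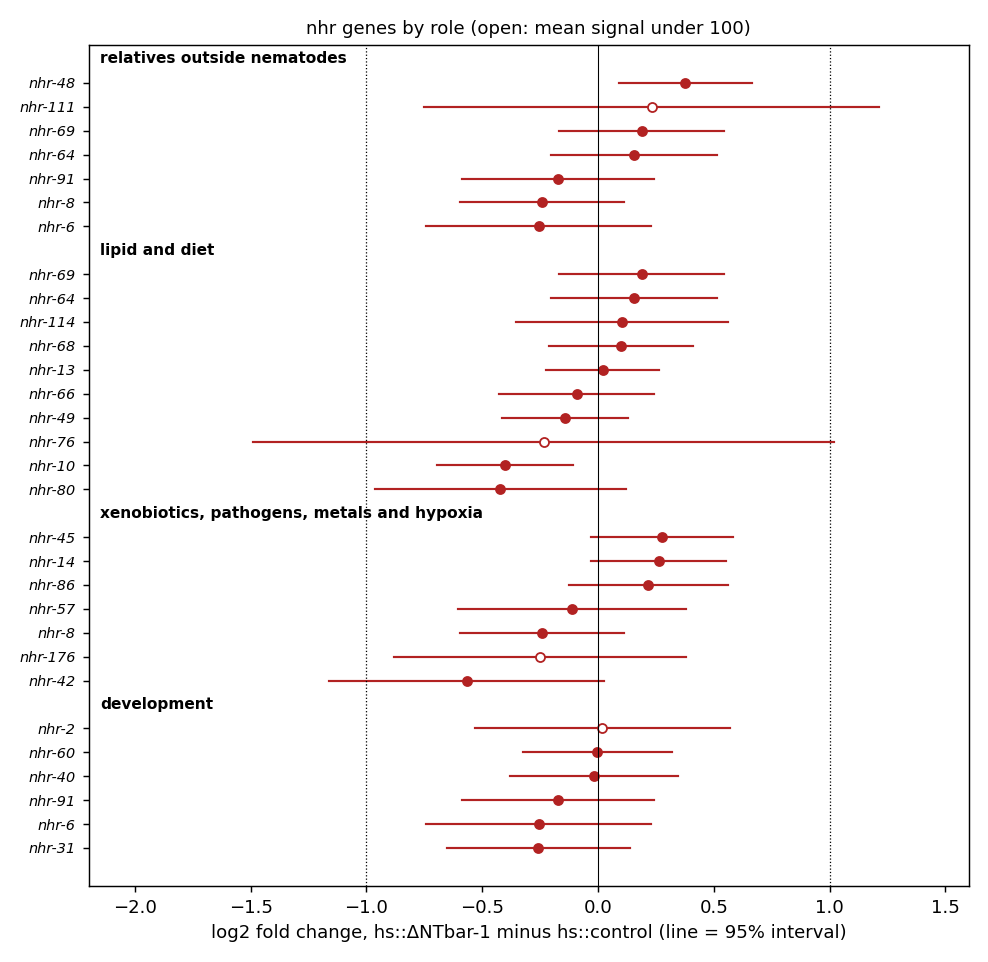
Log2 fold change (hs::ΔNTbar-1 minus hs::control) with its 95% interval for the nhr genes listed by role or as relatives of receptors outside nematodes. Open points mark a mean signal under 100 and dotted lines a 2-fold change. A gene in 2 lists appears under both, and the interval excludes 0 for nhr-48 and nhr-10.

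Many nhr genes lie next to one another in the genome. In the RefSeq gene order, counting protein-coding genes and pseudogenes, 107 of the 249 were adjacent to another member, in 34 runs of 2 to 8 genes, and the others stood alone. The genes in runs had a lower signal, with 60.7% under 100 beside 47.2% of those that stood alone. Of 73 adjacent pairs, 42 had log2 fold changes of the same sign, in a family with 58.2% of its genes below 0. The 58.2% is a share of single genes and not of pairs. Whether 42 exceeds the number for unrelated pairs was not tested. In the run of 6 genes from nhr-99 to nhr-106, 5 were below 0, with nhr-99 at -0.42, nhr-55 at -0.35, nhr-130 at -0.21, nhr-211 at -0.50 and nhr-106 at -0.40. nhr-212 was the exception, at 0.10. In the run of 5 from nhr-228 to nhr-226, 4 were above 0, and nhr-115 was the highest at 0.47. The run of 7 that ends with nhr-42 had 6 genes below 0, with the 4 between nhr-163 and nhr-162 from -0.27 to -0.07. In the run from nhr-123 to nhr-201 all 5 were below 0, and from nhr-44 to nhr-144 5 were below 0 and 1 above. Other long runs were mixed. From nhr-56 to nhr-96, and likewise from nhr-206 to nhr-136, 4 were above 0 and 3 below. From nhr-186 to nhr-124, 3 were above and 5 below. No nhr gene was called by limma, so no run could hold a called member. The first 3 runs were named after their values were seen.

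**Figure D5:**
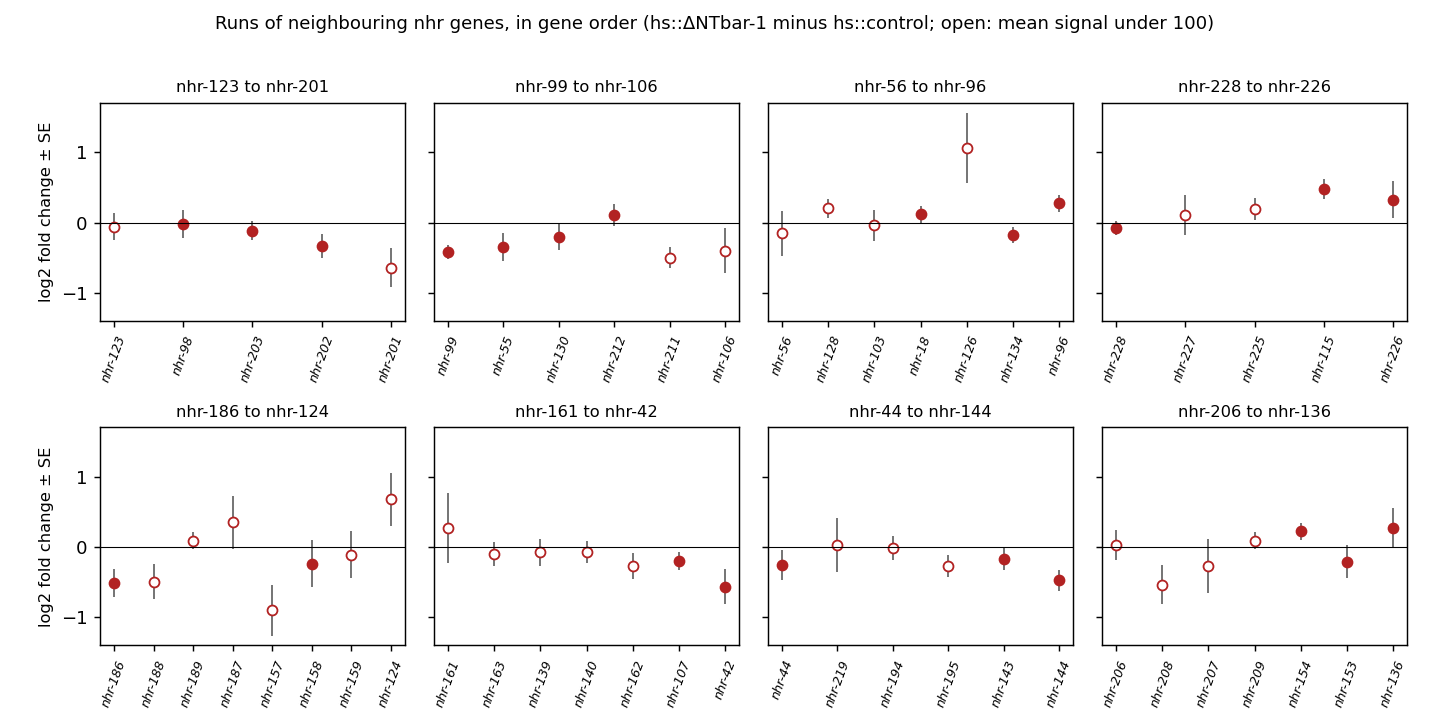
Log2 fold change (hs::ΔNTbar-1 minus hs::control) with its standard error for the 8 runs of at least 5 neighbouring nhr genes, in gene order, with open points for a mean signal under 100. Genes of a run differ from one another by up to 1.58, the gap between nhr-157 and nhr-124.

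Some nhr genes lie close to genes that did change. The sequence names place 19 nhr genes on 11 clones, the stretches of genome used for sequencing, that also hold a gene called by limma. Their log2 fold changes ran from -0.85 to 0.33, and none passed. The sign was that of every called gene on their clone for 13 of the 19, in a family with 58.2% of its genes below 0. Called genes were higher on some of these clones and lower on others, so the 2 shares are not directly comparable. Values close to 0 count among the 13, such as nhr-190 at -0.001. Whether 13 exceeds the number for unrelated genes was not tested. On clone ZK488, beside -0.95 for gtnt-57, the pseudogene nhr-250 was at -0.85 (interval -1.81 to 0.12) and nhr-251 at -0.51 (-1.10 to 0.08). Both were dim, at 22.5 and 10.7 on the hs::ΔNTbar-1 arrays, against 47.9 and 21.6 on the hs::control arrays. The brighter nhr-90 was at -0.06 (-0.35 to 0.24). On clone ZK6, beside -0.73 for dod-19, nhr-252 was at -0.67 (-1.49 to 0.15), nhr-253 at -0.34 (-1.25 to 0.57) and nhr-254 at -0.34 (-1.03 to 0.36). These were also dim, at 6.4, 17.3 and 2.2 on the hs::ΔNTbar-1 arrays, against 21.3, 28.9 and 8.3 on the hs::control arrays. On clone Y38E10A, nspe-7, Y38E10A.14 and nspe-5 fell, with log2 fold changes of -3.49, -2.33 and -1.33, while nhr-234 was at -0.09 (interval -0.50 to 0.33) and nhr-235 at 0.13 (-0.72 to 0.98). On clone F48G7, F48G7.8 fell with -1.47, nhr-190 was at 0.00 (-0.31 to 0.31) and the pseudogene nhr-83 was at 0.33 (-0.03 to 0.68). Next in gene order to a called gene stood nhr-79, at 0.02 beside 0.99 for Y39B6A.1, nhr-152, at -0.36 beside 1.21 for C12D5.9, and nhr-278, at -0.03 beside -0.73 for dod-19. These genes were named after their values were seen.

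Among genes that nhr receptors are known to control, 1 of 16 passed limma's test, where 0.729% of all genes did. At an unadjusted p under 0.05 by limma 6 passed, beside 13.9% of all genes. Groups were separated for 2 on the higher side (11% of all genes) and 5 on the lower side (10.5%). The list was chosen with earlier results of these data known. acs-2, an acyl-CoA synthetase gene that NHR-49 activates, fell to 161, 192 and 154 on the hs::ΔNTbar-1 arrays, against 800.5, 588 and 889.9 on the hs::control arrays. Its log2 fold change came to -2.05, with a standard error of 0.18 and an adjusted p of 0.0118, while the 95% interval of nhr-49 itself spanned 0. By this probe set acs-2 also met the study's criteria as lower. Another probe set of acs-2 gave 190.2, 159.5 and 249 on the hs::ΔNTbar-1 arrays and 405, 317 and 515 on the hs::control arrays, with a log2 fold change of -0.99 and an adjusted p of 0.154. The call of acs-2 was lost when hs::ΔNTbar-1 replicate 1, 2 or 3 was left out (adjusted p of 0.0774, 0.0638 and 0.0647), and likewise for hs::control replicate 1 (0.0621) or 3 (0.0531), with log2 fold changes of -2.22 to -1.93.

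The other desaturase and oxidation targets of NHR-49 and its partners did not share that size of difference. fat-7, fat-6 and fat-5, which encode fatty acid desaturases, had log2 fold changes of 0.53, 0.11 and -0.26. fat-7 gave 3750, 2576 and 2813 on the hs::ΔNTbar-1 arrays and 2065, 1959 and 2225 on the hs::control arrays, with separated groups and an adjusted p of 0.252. acdh-1 and hphd-1, which act in propionate breakdown, had 0.18 and -0.23. Of the iron genes, ftn-1, which encodes ferritin, gave 966, 702 and 795 on the hs::ΔNTbar-1 arrays and 468.5, 398 and 330.5 on the hs::control arrays. Its groups were separated and its adjusted p was 0.082, with a log2 fold change of 1.01, which met the study's criteria as higher. smf-3, a metal transporter gene, had -0.82 (adjusted p = 0.310) at 65.9 ± 26.9 on the hs::ΔNTbar-1 arrays, against 126 ± 38.7 on the hs::control arrays. The pathogen response genes irg-4 and irg-5 had -0.52 and -0.53, both with separated groups and adjusted p-values of 0.154 and 0.205. vha-5 and vha-8, subunits of the vacuolar ATPase, had 0.13 and -0.09.

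Receptors outside the family's rule and its coregulators gave 0 calls by limma, among 10 of 12 measured receptors and 12 of 12 coregulators and ligand makers. At an unadjusted p under 0.05, unc-55 and daf-36 passed, and unc-55 also met the study's criteria as lower. daf-12, the receptor for dafachronic acid, gave 4338, 3889 and 4135 on the hs::ΔNTbar-1 arrays and 3585, 3964 and 3593 on the hs::control arrays, with overlap. unc-55, a receptor of motor neurons, gave 1.2, 16 and 3.3 on the hs::ΔNTbar-1 arrays, against 31, 23.2 and 49 on the hs::control arrays (log2 fold change -1.16, adjusted p = 0.178). daf-36, which encodes an oxygenase at the start of dafachronic acid synthesis, gave 118.7, 159 and 90.7 on the hs::ΔNTbar-1 arrays, against 282, 348 and 162 on the hs::control arrays (-0.98, adjusted p = 0.252), with separated groups. The coregulator mdt-15, a Mediator subunit that binds NHR-49, was at -0.07 (interval -0.39 to 0.26).

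Markers of tissues were set beside the family. The summed signal of 7 of 8 listed intestinal markers was 64366 to 70370 on the hs::ΔNTbar-1 arrays and 72105 to 72525 on the hs::control arrays, with 0 called by limma and 0 at an unadjusted p under 0.05. That of the 8 neuronal markers was 21099 to 23675 on the hs::ΔNTbar-1 arrays and 23708 to 25047 on the hs::control arrays, with 0 called. Among them 2 had an unadjusted p under 0.05, in opposite directions, snt-1 at -0.42 and unc-31 at 0.72. Sums of 7 body wall muscle markers were 85900 to 92943 on the hs::ΔNTbar-1 arrays and 82753 to 86573 on the hs::control arrays. Among the 8 markers of hypodermis and seam, bli-1, a cuticle collagen gene, rose with a log2 fold change of 2.34 (adjusted p = 0.00468), and the sums were 7938 to 8247 on the hs::ΔNTbar-1 arrays and 8194 to 9008 on the hs::control arrays. At an unadjusted p under 0.05, 4 of these 8 passed, with elt-3 at -0.56 and grd-10 at -0.29 on the lower side and che-14 at 0.35 beside bli-1 on the higher side. Germ line sums overlapped, at 3525 to 3856 on the hs::ΔNTbar-1 arrays and 3289 to 3896 on the hs::control arrays, as did those of 5 sperm markers, at 187 to 398 on the hs::ΔNTbar-1 arrays and 244 to 325 on the hs::control arrays. The 3 heat shock genes measured summed to 10260 to 17556 on the hs::ΔNTbar-1 arrays and 6388 to 13136 on the hs::control arrays, with overlap. Members of a list differed in direction. Among the intestinal markers, act-5 was at 0.12 with groups separated on the higher side, and asp-1 at -0.13 with groups separated on the lower side. Sums are carried by the brightest markers, and any part of tissue amounts in the median of the nhr genes was not tested.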

How the data were processed

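Signal was measured on 6 Affymetrix arrays, 3 per strain. Groups came from the genotype label and replicate numbers from the sample titles. The authors deposited 1 table of linear signal intensity for 22625 probe sets. The methods name MAS 5 detection calls and RMA in Partek, and the submitters' processing notes list MAS5 and Partek. Linear values with a trimmed mean of 500.2 on each array were taken as scaled MAS 5 signal. The table has 0 columns of other samples. No genome build is given in the sources used here. Without 77 control probe sets, 22548 entered the test, and 20766 of these name 1 gene and 887 several. Names and gene order came from the platform annotation and the RefSeq table of WBcel235, which held all 249 nhr genes. The 14 probe sets that name an nhr gene with another gene or identifier were not used.

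Values were turned into log2(signal + 16), without further normalization or filter, and tested two-sided with limma 3.58.1 in R 4.3.3 (lmFit, eBayes), with Benjamini-Hochberg adjustment over all probe sets tested and a threshold of 0.05. Intervals are 95% intervals of that model. The number of arrays limits the precision, and with 3 arrays a side the lowest p open to an exact permutation test is 0.1. At most 0.297% of values were identical between 2 arrays, so no array was a copy of another. This cannot show that the RNA samples were independent, and each array was taken as 1 sample. The steps were tested on simulated data. The members, lists and tests were chosen with earlier results of these data known. Named genes are those called, the 10 per direction with the largest log2 fold change among genes with groups that did not overlap and a mean signal of at least 100, the 10 of highest signal, and the role lists. Alternatives were other scalings, pseudocounts of 1 and 64, leaving out dim probe sets, probe sets that can bind several genes or single arrays, a trended and robust variance, a replicate block, the methods' analysis of variance, ratios of mean signals and averaging over a gene's probe sets. Alternatives for bar-1, acs-2, ftn-1, bli-1, the pathway genes and the overlap counts were chosen after seeing the data.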

Additional observations from a re-analysis of the deposited data

How the results depend on the processing

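The count of 0 nhr genes called by limma in each direction held under quantile normalization, median centring, pseudocounts of 1 and 64, leaving out each array in turn (0 to 0) and omitting probe sets with possible cross-binding. Without dim probe sets limma called 1 higher and 2 lower, and with a trended and robust variance it called 1 lower. The methods' analysis of variance gave 10 higher and 13 lower before adjustment, and 1 higher and 0 lower after it. For the study's criteria, a pseudocount of 1 gave 1 higher (nhr-268) and 1 lower (nhr-248), and the ratio of mean signals gave 1 higher. With each array left out in turn, 0 to 1 were higher, with nhr-155 passing without hs::control replicate 1 and nhr-126 without hs::control replicate 3, and 0 to 2 were lower, with nhr-252 passing without hs::control replicate 2 and nhr-198 and nhr-185 without hs::ΔNTbar-1 replicate 2. The median log2 fold change was -0.087 with median centring, -0.088 with a pseudocount of 1, -0.029 with a pseudocount of 64, and -0.094 to -0.0075 with single arrays left out. Separated groups numbered 23 to 30 higher and 36 to 50 lower with an array left out, where 2 arrays stand against 3 and separation is easier to reach. The shares of all genes are not given here for these counts, nor for the analysis of variance and the criteria under the alternatives. Such counts show how far the family's numbers move, and they cannot be set against all genes. Of 648 values for 46 named nhr genes, 621 kept direction and side of the threshold, 4 gained a call and 23 changed sign, in 12 genes. Averaging probe sets gave 0.17 for nhr-3, 0.059 for nhr-97, 0.069 for nhr-66, 0.036 for nhr-1 and -0.049 for nhr-2. Quantile normalization gave 0.0050 for nhr-3, and median centring gave -0.0099 for nhr-13 and -0.011 for nhr-2. With single arrays left out the ranges were -0.10 to 0.082 for nhr-3, -0.43 to 0.093 for nhr-97, -0.14 to 0.093 for nhr-40, -0.068 to 0.22 for nhr-114, -0.31 to 0.038 for nhr-57, -0.083 to 0.10 for nhr-60, -0.14 to 0.20 for nhr-2, -0.20 to 0.49 for nhr-111 and -0.81 to 0.15 for nhr-76. Among the 38 other pathway genes, limma called 1 higher (ftn-1) with a pseudocount of 64, without dim probe sets and with a trended and robust variance. On the lower side it called 2 without dim probe sets (acs-2 and irg-4), 3 with a trended and robust variance (with irg-5), and 0 to 1 with an array left out. The causes were not tested. Same-numbered samples of the 2 groups had correlations of deviations of 0.06, -0.08 and 0.15, so the numbers were not taken as pairs, and with the replicate number as a block 0 nhr genes were called in each direction and 0 pathway genes on the lower side, and the adjusted p was 0.111 for bar-1, 0.139 for acs-2 and 0.0876 for bli-1. Mean signals were under 100 for 132 of the 249 nhr genes, and 47 of these had an interval that reached a 2-fold change. The pseudocount narrows the intervals of dim genes.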
